A study of Rattus norvegicus with 8 samples.

Results

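Cidea and 9 further genes of fat storage were followed in the kidneys of rats born with 1 kidney and of rats with both. The genes were Cidea, Cidec, Plin2, Plin4, Dgat1, Dgat2, Pnpla2, Lipe, Adipoq and Fabp4, and every probe set paired with exactly 1 of these symbols was taken, which gave 11 probe sets for the 10 genes, out of 17245 named genes on the array. The set was chosen from a difference already seen between the 2 groups for Cidea, together with genes of the same process, so the differences between the groups are given below as a description and support nothing further. HSRA is a rat model of unilateral renal agenesis derived from a heterogeneous stock. The HSRA-S animals (4) were born with a congenital solitary kidney, while the controls, HSRA-C (4), had a kidney pair. All 8 animals were of the HSRA stock and 4 weeks of age, no treatment is named, and 1 whole kidney sample of each was measured on its own Rat Gene 1.1 ST array. The labels used here do not state the sex of the rats or the side of the kidney taken.

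Cells store surplus fatty acids as triglyceride in lipid droplets, organelles with a neutral lipid core inside a phospholipid monolayer that carries coat proteins. Diacylglycerol acyltransferases make the triglyceride, perilipins cover the droplet surface, CIDE proteins move lipid from small to large droplets at their contact sites, and lipases release the fatty acids again. In the kidney the proximal tubule burns fatty acids as its main fuel, and droplets there are known to grow when supply exceeds oxidation. Cidea is best known from brown fat, Cidec from white fat, and Adipoq and Fabp4 are adipocyte genes, so kidney samples with attached fat can carry all of these.

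Levels are log2 of the deposited intensity, and each difference is HSRA-S minus HSRA-C on that scale. Kidney identity was checked on tubule markers. Umod, the thick ascending limb protein of urine, stood at 11.58 ± 0.030 in the solitary and 11.65 ± 0.050 in the control kidneys, and the proximal tubule phosphate transporter Slc34a1 at 11.91 ± 0.12 and 11.94 ± 0.022 (SD, n = 4 each). The arrays had median intensities of 30.8 to 32.3 and correlated at 0.987 to 0.995 with one another over all probe sets. HSRA-C replicates 3 and 4 stood apart by a higher mean of the collecting duct markers, 7.90 and 8.05 against 6.84 to 7.53 elsewhere. Slc14a2, Elf5, Aqp4, Aqp2 and Foxi1 were highest in this pair, while Scnn1b, Scnn1g, Aqp3 and Atp6v1g3 were not. The proximal tubule mean was also lowest there, at 10.21 and 10.18. The mean of the proximal tubule markers minus that of the collecting duct markers was 2.31 and 2.13 in these 2 kidneys. HSRA-S replicate 4 had the highest value, 3.92, and the remaining 5 kidneys lay from 2.94 to 3.18. In whole tissue, fewer cells of a type and less RNA per cell cannot be told apart.

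Cidea was higher in every solitary kidney than in any control kidney. Its level was 6.35, 6.72, 6.35 and 6.44 in HSRA-S replicates 1 to 4, and 5.95, 5.90, 5.78 and 6.0 in HSRA-C replicates 1 to 4. HSRA-S replicate 2 was the highest of the 8, and a gap of 0.35 separated the lowest solitary kidney from the highest control. The group means were 6.47 ± 0.17 and 5.91 ± 0.094 (SD, n = 4 each), a difference of 0.56 (SE 0.092, 95% interval 0.35 to 0.76), or 1.47-fold. Leaving out any one kidney gave a Cidea difference between 0.47 and 0.60. Without HSRA-C replicates 3 and 4 it was 0.54, and with the proximal tubule to collecting duct value as a covariate 0.55.

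Of the 10 genes, 9 had a higher mean in HSRA-S and 1 a lower mean, with a median difference of 0.081 against 0.0153 over all 13796 genes tested, of which 55.5% were higher in HSRA-S. With limma and Benjamini-Hochberg adjustment over all genes, 0 of the 10 were called at an adjusted p under 0.05, and 0% of all genes were. The adjusted p of the 10 genes ran from 0.249 for Cidea to 0.955 for Plin4. At an unadjusted p under 0.05 there were 3 of the 10, Cidea, Dgat2 and Plin2, all higher in HSRA-S, where 7.36% of all genes were past that limit in that direction. The same 3 genes had no overlap between the groups with HSRA-S above HSRA-C, as 4.12% of all genes did, and nothing is read from these shares because the set was built around this contrast. For 7 of the 10 genes the 95% interval of the difference included 0.

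**Figure D1:**
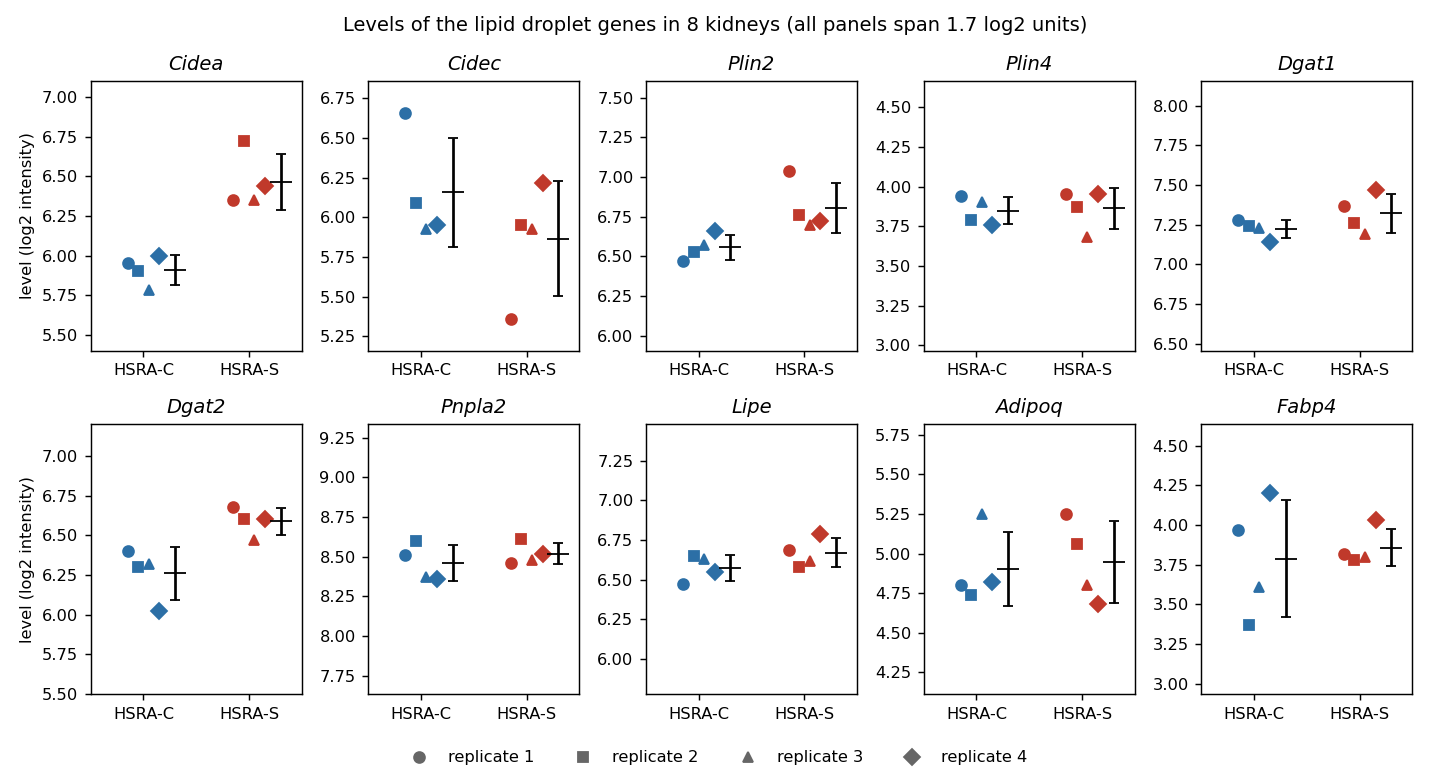
Level of each of the 10 genes (vertical axis, log2 intensity; every panel spans the same number of log2 units, centred on its own gene) in the 4 HSRA-C kidneys (blue) and the 4 HSRA-S kidneys (red), with a marker shape for each replicate number and the group mean ± SD as a black bar. For Cidea, Dgat2 and Plin2 all red points lie above all blue points, by 0.35, 0.08 and 0.04, while the groups overlap in the other 7 panels.

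**Figure D2:**
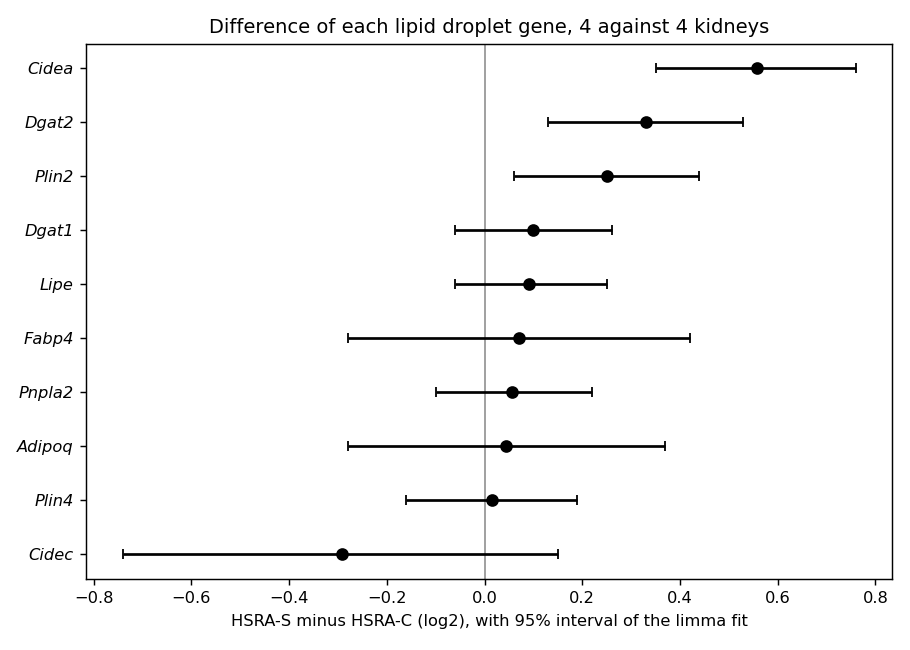
Difference HSRA-S minus HSRA-C (horizontal axis, log2) of each gene as a point with the 95% interval of the limma fit, 4 against 4 kidneys, ordered by size. The intervals of Cidea (0.35 to 0.76), Dgat2 (0.13 to 0.53) and Plin2 (0.06 to 0.44) lie above 0, and the widest belongs to Cidec (-0.74 to 0.15).

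Cidec, the closest relative of Cidea in the set and the CIDE protein of large white fat droplets, had the opposite sign. Its level was 5.36, 5.95, 5.93 and 6.22 in HSRA-S replicates 1 to 4 and 6.66, 6.09, 5.93 and 5.95 in HSRA-C replicates 1 to 4. The groups overlapped, and the lowest and the highest value of the gene came from HSRA-S replicate 1 and HSRA-C replicate 1. The difference was -0.29 (SE 0.20, 95% interval -0.74 to 0.15), with an adjusted p of 0.58 in limma. It was -0.12 when HSRA-C replicate 1 was left out and -0.13 when HSRA-S replicate 1 was. The tubule covariate gave -0.60, and leaving out HSRA-C replicates 3 and 4 together gave -0.51. The third member of the family, Cideb, known from liver and named here after its value was seen, was at 8.59, 8.61, 8.37 and 8.86 in HSRA-S and 8.62, 8.47, 8.31 and 8.38 in HSRA-C. Its difference was 0.16 (SE 0.11), and its groups overlapped. It was 0.078 without HSRA-S replicate 4, 0.063 without HSRA-C replicates 3 and 4 and -0.01 with the tubule covariate.

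The start regions of Cidea, Cidec and Plin2 are printed because the first pair are relatives whose differences had opposite signs, and Plin2 is a droplet gene whose groups, like those of Cidea, did not overlap. Each sequence is the 250 bases before the first start site that RefSeq lists in rat build GRCr8, 5′ to 3′ on the gene's strand, with capitals marking GGGCGG, the GC box, read on both strands. Cidea lies at chr18:63164567-63164816 (plus strand), Cidec at chr4:148137116-148137365 (minus strand) and Plin2 at chr5:106229019-106229268 (minus strand).
Cidea: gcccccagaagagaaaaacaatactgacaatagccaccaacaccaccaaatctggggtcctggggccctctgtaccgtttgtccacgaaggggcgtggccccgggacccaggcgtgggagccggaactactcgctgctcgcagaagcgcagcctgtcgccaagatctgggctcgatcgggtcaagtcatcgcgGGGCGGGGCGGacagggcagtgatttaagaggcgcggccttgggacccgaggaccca
Cidec: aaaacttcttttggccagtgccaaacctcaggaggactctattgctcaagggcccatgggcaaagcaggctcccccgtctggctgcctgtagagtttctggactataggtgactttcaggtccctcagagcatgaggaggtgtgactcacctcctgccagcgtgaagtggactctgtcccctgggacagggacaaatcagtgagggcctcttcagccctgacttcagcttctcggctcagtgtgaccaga
Plin2: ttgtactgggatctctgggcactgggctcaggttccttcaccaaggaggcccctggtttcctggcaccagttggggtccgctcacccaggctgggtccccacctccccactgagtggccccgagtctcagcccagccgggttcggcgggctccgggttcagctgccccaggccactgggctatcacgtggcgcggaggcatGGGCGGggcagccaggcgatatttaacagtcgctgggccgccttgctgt
The GC box stood 2 times in Cidea, as overlapping copies, 1 time in Plin2 and 0 times in Cidec, and at least once in 32.4% of 27457 promoters of this length. The nuclear receptor half-site AGGTCA, the CCAAT box and TATAAA, on both strands, were absent from these 3 windows and were found in 13.7%, 34.3% and 13.1% of all promoters. The GC share was 63.6% in Cidea, 56.0% in Cidec and 67.2% in Plin2, beside a median of 52.0% over all promoters. Promoters were matched for 6 of the 10 genes, also Plin4, Pnpla2 and Adipoq, and not for Dgat1, Dgat2, Lipe and Fabp4.

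Among the perilipins, Plin2, the coat protein found on droplets of most cells, was at 7.04, 6.76, 6.70 and 6.72 in HSRA-S replicates 1 to 4 and at 6.47, 6.53, 6.57 and 6.66 in HSRA-C replicates 1 to 4. HSRA-S replicate 1 stood above the other kidneys, and the lowest solitary kidney exceeded the highest control by 0.04. The difference was 0.25 (SE 0.085), or 1.19-fold, and without HSRA-S replicate 1 it was 0.17. Plin4, a perilipin of small nascent droplets in fat cells, was at 3.95, 3.87, 3.68 and 3.95 against 3.94, 3.79, 3.90 and 3.76. These values lie close to the limit of 3.63 under which genes were left out as dim, the groups overlapped, and the difference was 0.016 (SE 0.079).

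Both enzymes for the last step of triglyceride synthesis had a higher mean in HSRA-S. Dgat2, which adds the last fatty acid at the endoplasmic reticulum and on droplets, was at 6.68, 6.60, 6.47 and 6.60 in HSRA-S and at 6.40, 6.30, 6.32 and 6.02 in HSRA-C. The groups did not overlap, by a gap of 0.08, and HSRA-C replicate 4 was the lowest kidney. The difference was 0.33 (SE 0.088), or 1.26-fold, with an adjusted p of 0.331 in limma, and it was 0.25 without the lowest kidney and 0.24 when HSRA-C replicates 3 and 4 were both left out. Dgat1, the second enzyme for the same step, was at 7.37, 7.26, 7.19 and 7.47 in HSRA-S and 7.28, 7.24, 7.23 and 7.14 in HSRA-C. Its groups overlapped, and the difference of 0.10 (SE 0.073) became 0.012 with the tubule covariate. Whether Dgat1 and Dgat2 differed from each other in response was not tested.

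The lipases showed small differences. Pnpla2, the adipose triglyceride lipase that makes the first cut, was at 8.46, 8.61, 8.48 and 8.52 in HSRA-S and 8.51, 8.60, 8.37 and 8.36 in HSRA-C. The groups overlapped with a difference of 0.057 (SE 0.072), which was -0.04 without HSRA-C replicates 3 and 4. Lipe, the hormone-sensitive lipase, had a pair of probe sets, of which the brighter was used. That one was at 6.69, 6.58, 6.62 and 6.79 against 6.47, 6.65, 6.63 and 6.55, a difference of 0.092 (SE 0.069). The other read 4.89, 4.67, 4.54 and 5.04 against 4.74, 4.85, 4.87 and 4.72, a difference of -0.011 (SE 0.11), so the Lipe probe sets differed in sign and both overlapped between groups.

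The adipocyte genes overlapped widely between the groups. Adipoq, the hormone adiponectin, was at 5.25, 5.06, 4.80 and 4.68 in HSRA-S replicates 1 to 4 and at 4.80, 4.74, 5.25 and 4.82 in HSRA-C replicates 1 to 4. The highest Adipoq values came from HSRA-S replicate 1 and HSRA-C replicate 3. The difference was 0.044 (SE 0.14, 95% interval -0.28 to 0.37). Fabp4, the fatty acid binding protein of adipocytes, macrophages and small vessels, was at 3.82, 3.78, 3.80 and 4.03 against 3.97, 3.37, 3.61 and 4.20, and the controls covered the whole range of the solitary kidneys. Its difference was 0.070 (SE 0.16, 95% interval -0.28 to 0.42). Both intervals reach no higher than 0.42 and both include 0.

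A wider list of 15 adipocyte markers, of which 14 had a probe set, had 7 genes higher and 7 lower in HSRA-S, 0 of them called, and a median difference of -0.018. The list shares Adipoq, Fabp4, Cidec and Lipe with the 10 genes. Its mean level ran from 4.97 to 5.12 in HSRA-S and from 5.01 to 5.11 in HSRA-C. Over the 6 defining markers on the array, Adipoq, Lep, Plin1, Cfd, Retn and Trarg1, the mean ran from 4.23 to 4.45 and from 4.23 to 4.35. Plin1, the perilipin of white fat droplets, was the one of the 6 without overlap, at 4.61, 4.45, 4.45 and 4.56 against 4.24, 4.40, 4.44 and 4.40 (difference 0.15, SE 0.068; 0.084 with log2(value + 16)), while the satiety hormone Lep differed by 0.007 (SE 0.093). No array value was 0, and the table holds no calls of detection, so an absence of adipocytes could not be read from these levels. With the mean of the defining markers as a covariate, Cidea differed by 0.56 (SE 0.097), Dgat2 by 0.32 and Plin2 by 0.23. The group means of these markers lay between 3.62 (Trarg1) and 4.95 (Adipoq), against a dim limit of 3.63. No covariate of brown fat was fitted, and the part of attached fat in these differences was not tested.

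The fat around the kidney of young rats holds brown adipocytes, and 8 of the 11 brown adipocyte markers had a probe set, of which 4 passed the filter on dim genes. Ucp1, the uncoupling protein that defines brown fat, was at 3.96, 4.59, 4.45 and 4.43 in HSRA-S and 4.04, 3.50, 3.83 and 4.36 in HSRA-C. The groups overlapped, with a difference of 0.42 (SE 0.18, adjusted p = 0.404 in limma). It was 0.28 without HSRA-C replicate 2 and 0.22 with log2(value + 16). Without HSRA-C replicate 4 it was 0.57, and without HSRA-C replicates 3 and 4 it was 0.59. Of the 4 tested markers 2 were higher and 2 lower in HSRA-S, with a median difference of 0.004. Ppargc1a, a coactivator of mitochondrial genes, was at 0.072, Cox8b at -0.064 and Cpt1b at -0.077. The mean levels in HSRA-S and HSRA-C were 9.59 and 9.51 for Ppargc1a and 6.74 and 6.82 for Cpt1b. These lay far above those of Ucp1 (4.36 and 3.93) and Cox8b (3.67 and 3.74). Which cells gave the Ppargc1a and Cpt1b signal was not tested, so the split and the median say little about brown fat. Among the 4 markers under the dim limit, Dio2, the deiodinase of active brown fat, was at -0.36, Elovl3 at -0.10, Adrb3 at 0.087 and Zic1 at 0.062. The mean of the 8 measured markers ran from 4.65 to 4.78 across solitary and from 4.67 to 4.75 across control kidneys. The part of brown fat in the Cidea difference was not tested. Adrenal cortex, another lipid-rich neighbour, had mean marker levels of 3.71 to 3.90 in HSRA-S and 3.69 to 3.86 in HSRA-C, with 3 of 7 measured markers above the dim limit. The markers did not move together. Cyp11b1, the brightest, was lower in HSRA-S without overlap, by -0.26 (SE 0.079, adjusted p = 0.331 in limma). It was at -0.098 with the mean over probe sets. Star was at -0.061 and Mc2r at 0.031. Under the dim limit, Nr5a1 was at 0.24, Akr1b7 at 0.23, Cyp11a1 at 0.135 and Cyp11b2 at 0.112.

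**Figure D3:**
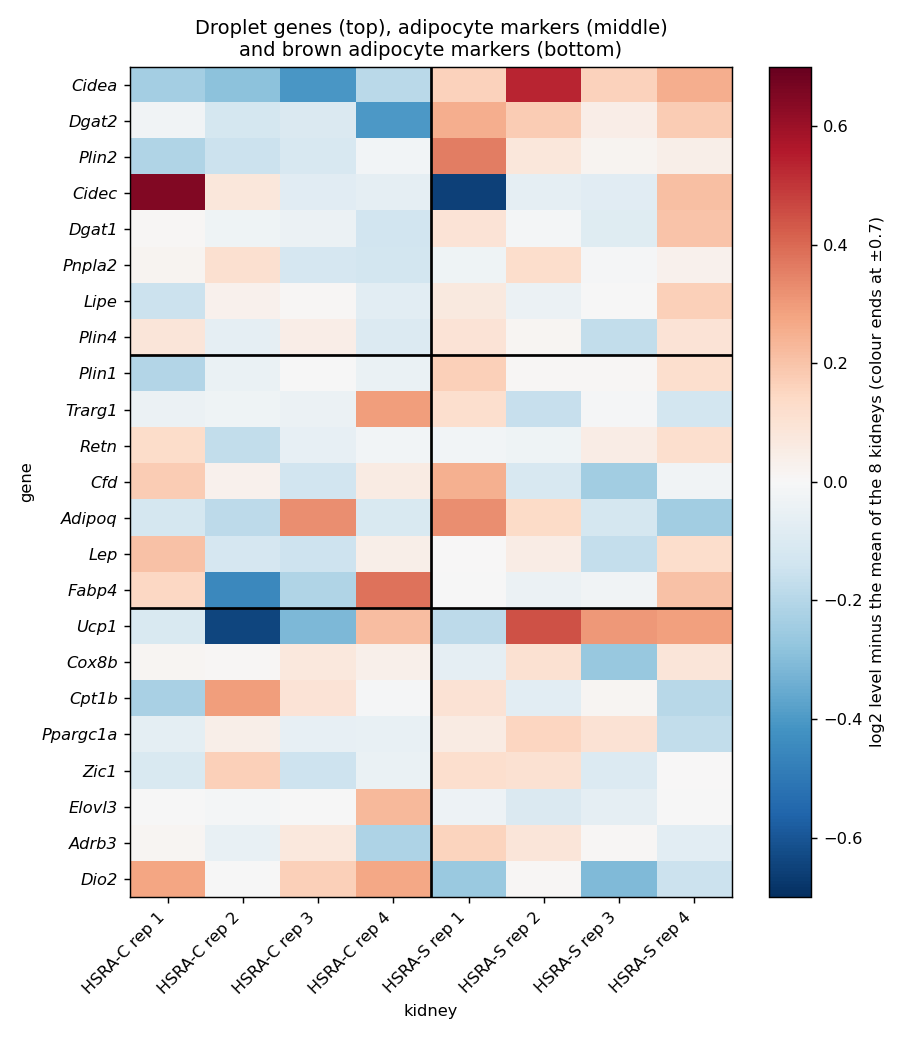
Deviation of each gene (rows) from its mean over the 8 kidneys (columns, 4 HSRA-C left of the line and 4 HSRA-S right), in log2 units by colour, for 8 droplet genes, 7 adipocyte markers and 8 brown adipocyte markers. In the rows of Cidea, Dgat2 and Plin2 every kidney left of the line is lower than every kidney right of it, whereas Adipoq and Fabp4 vary within both groups.

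**Figure D4:**
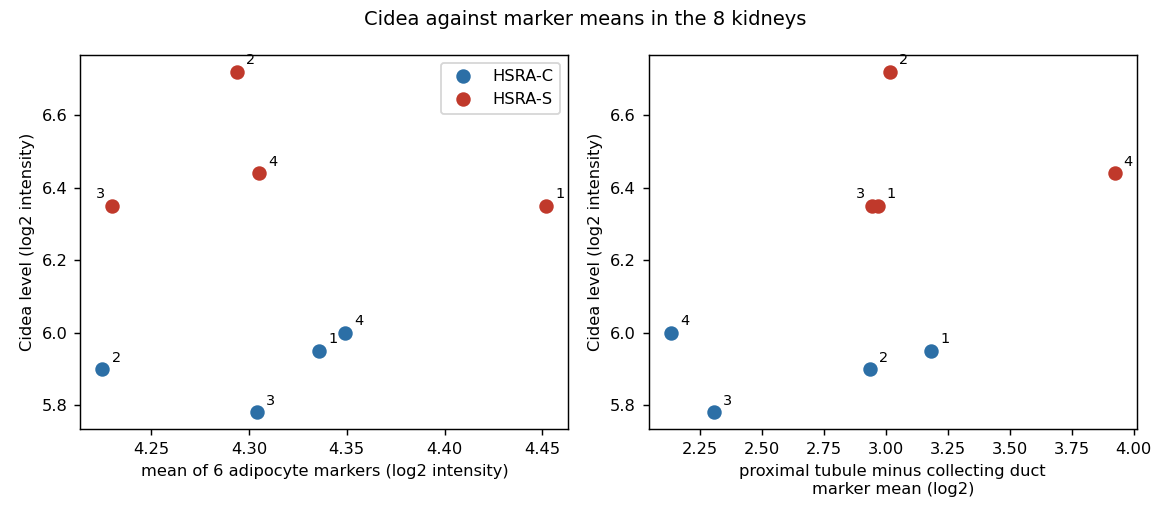
Cidea level (vertical axis, log2 intensity) of each kidney against the mean of the 6 adipocyte markers (left) and against the proximal tubule minus collecting duct marker mean (right), with replicate numbers beside the points. On the left the groups share the range 4.23 to 4.35 of the adipocyte mean, which rests on markers of low level. On the right HSRA-C replicates 3 and 4 have the lowest values.

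Across the 8 kidneys the other 9 genes deviated from their group means on both sides of Cidea. The correlation of these deviations with those of Cidea was -0.19 for Plin2, -0.17 for Dgat2, 0.32 for Cidec, 0.46 for Pnpla2 and -0.48 for Lipe. It was -0.18 for Adipoq and 0.25 for Fabp4. For the marker means it was 0.84 for brown adipocyte and -0.76 for adrenal cortex markers. The other marker means lay from -0.23 (podocyte) to 0.09 (adipocyte and endothelial). Cidea, Ucp1 and the brown adipocyte mean were all highest in HSRA-S replicate 2, at 6.72, 4.59 and 4.78. Only 4 of the 8 brown adipocyte and 3 of the 7 adrenal cortex markers were above the dim limit. Over the plain levels, which also hold the group difference, r was 0.64 for Plin2, 0.72 for Dgat2 and 0.02 for Adipoq. It was 0.38 for the brown adipocyte mean. These values describe 8 arrays that share 1 normalization, and carry no test.

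Genes were ranked by Pearson's r with Cidea over the 8 kidneys among the 13796 genes. Provisional symbols (LOC, RGD, AABR) and olfactory or vomeronasal receptors were passed over. The 6 most alike were then Slc66a1, Rtn4ip1, Eif4ebp2, Hmgb1-ps2, Tas2r139 and Mterf4, at 0.948 to 0.974. Slc66a1, a lysosomal exporter of basic amino acids, was at 5.80, 6.01, 5.79 and 5.86 in HSRA-S and 5.72, 5.65, 5.60 and 5.70 in HSRA-C, and followed Cidea within the groups too (r = 0.979 over deviations). Eif4ebp2, a repressor of translation, differed by 0.17 (SE 0.054) and Mterf4, a mitochondrial factor, by 0.18 (SE 0.055). All 6 were higher in HSRA-S without overlap, as were 4.12% of all genes. They were chosen by a correlation that also holds the group difference, so nothing is read from their differences. Hmgb1-ps2 is a pseudogene whose probes may read its parent gene, and with log2(value + 16) its difference was 0.17 in place of 0.31, and that of Tas2r139 0.24 in place of 0.49. A total of 23 genes exceeded an r of 0.9, and with 8 arrays such values arise among many genes. By deviations alone the 4 most alike were Slc66a1, Hk2, Saraf and Gpr37l1, at 0.949 to 0.979, and the groups overlapped for all of these but Slc66a1.

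Other genes of fat storage were taken as lists, read beside all genes, of which 0% were called and 55.5% were higher in HSRA-S. A list of 18 further genes held droplet proteins and genes of droplet formation or lipid breakdown, with the lysosomal Lipa among them. Of these 17 were tested, 15 higher and 2 lower in HSRA-S, 0 called, with a median difference of 0.056. Fitm1, which helps droplets bud from the endoplasmic reticulum, was at 5.04, 5.10, 4.77 and 5.24 against 4.71, 4.88, 4.59 and 4.70, a difference of 0.32 (SE 0.10) that became 0.20 with the tubule covariate. Lipa, the lysosomal acid lipase, differed by 0.19 (SE 0.078), and Ldah, a droplet-associated hydrolase, by 0.19 (SE 0.095), both with overlap. With the tubule covariate Lipa was at 0.10 and Ldah at 0.30. Of 18 genes of triglyceride and steryl ester synthesis 15 were tested, 11 higher and 4 lower, 0 called, with a median of 0.031. There Gpat3, which starts glycerolipid synthesis, differed by 0.21 (SE 0.11) and by 0.032 without HSRA-C replicates 3 and 4, Agpat4 by -0.13 (SE 0.083) and the phosphatidate phosphatase Lpin2 by 0.13 (SE 0.088). Gpat3 was at 0.11 without HSRA-C replicate 4, Agpat4 at -0.071 without HSRA-S replicate 1 and -0.24 with the tubule covariate, and Lpin2 at 0.055 without HSRA-C replicate 2. Soat2, a cholesterol esterifying enzyme, was under the dim limit and untested.

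Genes of fatty acid uptake and activation were mixed, with 5 higher and 6 lower of 11 tested, 0 called, and a median of -0.02. Slc27a2, a fatty acid transporter and acyl-CoA synthetase of the proximal tubule, was at 10.14, 9.95, 9.90 and 10.19 against 9.87, 9.86, 9.62 and 9.77, without overlap and with a difference of 0.27 (SE 0.087) that was 0.16 with the tubule covariate. Acsl1 and Acsl4, acyl-CoA synthetases, differed by 0.23 (SE 0.10) and 0.17 (SE 0.084) with overlap. With the tubule covariate Acsl1 was at 0.13 and Acsl4 at 0.11, and Acsl4 was at 0.082 without HSRA-C replicates 3 and 4. Fabp5, a fatty acid binding protein, had the opposite sign at -0.34 (SE 0.096), at levels of 3.53 to 3.68 in HSRA-S and 3.65 to 4.11 in HSRA-C. Its mean in HSRA-S, 3.58, lay under the dim limit, so it passed that filter through the controls, and with log2(value + 16) the difference was -0.16.

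Of the 15 tested transcription regulators of lipid genes, 9 were higher and 6 lower, 0 called, with a median of 0.072. Ppara, the fatty acid sensing receptor that switches on fat burning, was at 8.09, 8.05, 8.07 and 8.61 in HSRA-S and 8.18, 7.93, 7.58 and 7.67 in HSRA-C. HSRA-C replicates 3 and 4 were the lowest of the 8. The difference of 0.36 (SE 0.16) was 0.23 without HSRA-S replicate 4, 0.15 without the 2 lowest kidneys and 0.053 with the tubule covariate. Its partner Rxra differed by 0.16 (SE 0.075), the sterol receptor Nr1h3 by 0.22 (SE 0.11) and Esrra by 0.13 (SE 0.069), all with overlap. Only 1 of the 15 had groups without overlap, Esrrg, which was lower in HSRA-S by -0.11 (SE 0.068). Pparg was at -0.072 (SE 0.125). Without HSRA-C replicates 3 and 4, Nr1h3 was at 0.062 and Esrra at 0.085, and the tubule covariate gave 0.086 for Nr1h3. Of 20 targets of PPAR-alpha 15 were tested, 12 were higher and 3 lower, with a median of 0.245, again 0 called, and 6 were past an unadjusted p of 0.05, all higher in HSRA-S, beside 7.36% of all genes. Pex11a, a peroxisome division protein, was at 7.36, 7.38, 7.45 and 7.39 against 7.15, 7.20, 7.05 and 7.04 (difference 0.29, SE 0.060), and 0.25 with the tubule covariate. The carnitine carrier Slc25a20 (0.28, SE 0.085), the dehydrogenase Acadvl (0.28, SE 0.086) and the carnitine acyltransferase Cpt2 (0.25, SE 0.093) followed. With the tubule covariate Slc25a20 was at 0.29, Acadvl at 0.16 and Cpt2 at 0.10.

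**Figure D5:**
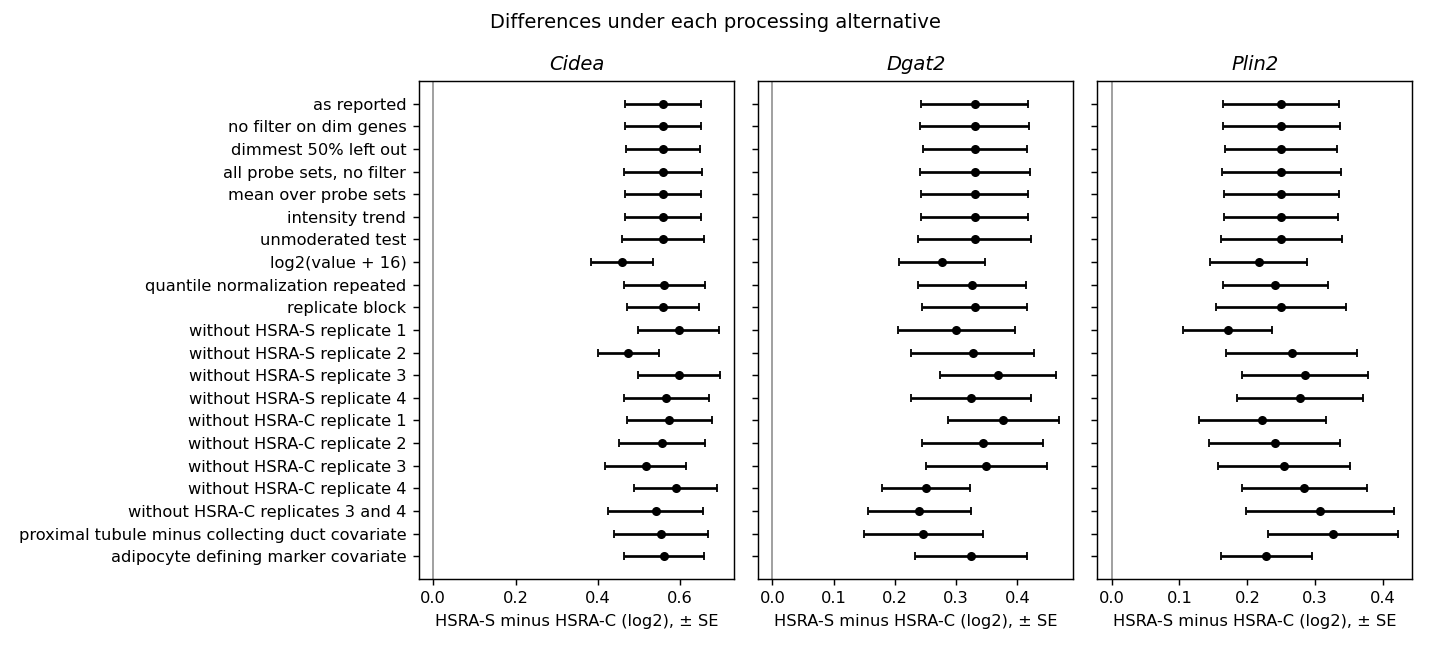
Difference HSRA-S minus HSRA-C (horizontal axis, log2, ± SE) of Cidea, Dgat2 and Plin2 under the reported setting (top) and each of 20 alternatives of filter, scale, samples and covariate. Every point lies above 0 in the 3 panels, from 0.458 to 0.597 for Cidea, 0.24 to 0.377 for Dgat2 and 0.171 to 0.326 for Plin2. Most alternatives could not change the sign, because the groups of these genes did not overlap.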

How the data were processed

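Whole kidney RNA of 4 HSRA-S and 4 HSRA-C rats, biological replicates per the labels, was measured with 1 Rat Gene 1.1 ST array each. Per the submitters' processing notes the authors summarised the probes with RMA, software and version not given in the sources used here, and the deposited intensities are linear, between 2.12 and 9259. RMA sets the distributions of probe intensities equal before they are summarised, and compresses dim values. The deposited probe set values still differed a little between arrays, with medians of 30.8 to 32.3. The design assumed log2 values, so log2 was taken first.

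Of 29214 probe sets, 18644 had exactly 1 symbol, 962 several and 9608 none in the platform annotation. All 11 probe sets of the 10 genes matched RefSeq (GRCr8) by gene ID with the same symbol. Per gene the probe set with the highest mean was kept, and the dimmest 20% of genes were left out, leaving 13796. HSRA-S and HSRA-C were compared with limma 3.58.1 (lmFit, eBayes) in R 4.3.3, adjusted by Benjamini-Hochberg at 0.05; Python 3.11.15 made the tables. The steps were tested on simulated data.

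The members, gene lists, the alternative without HSRA-C replicates 3 and 4 and both covariates were chosen with earlier results of these data known. Genes were named by rule: every member, up to 4 of smallest p in each lipid list, the 6 most like Cidea over the arrays and the 4 most like it in deviations, and defining markers. The 6 and the 4 were taken without provisional symbols (LOC, RGD, AABR) and without olfactory or vomeronasal receptors. Cideb, Hoxb5, C1qc, Esrrg, Pparg, the adrenal cortex markers and the dim brown fat markers were named after their values were seen. Alternatives were other filters, probe set rules, variance models and scales, a replicate block, left-out samples and 2 covariates. The number of arrays limits precision.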

Additional observations from a re-analysis of the deposited data

Results flagged for a closer look

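Among 44 groups of 4 kidneys examined, 11 probe sets and 11 marker means in each of the 2 conditions, 4 held a kidney far from the other 3, where chance flags about 1 in 20, or 2.2. Adipoq was at 5.25 in HSRA-C replicate 3 and at 4.74 to 4.82 in the other controls. Fabp4 was at 4.03 in HSRA-S replicate 4 and at 3.78 to 3.82 in the other solitary kidneys. The mean of the brown adipocyte markers was 4.75 in HSRA-C replicate 4, against 4.67 to 4.68 in the other controls. The mean of the adrenal cortex markers was 3.71 in HSRA-S replicate 2, the kidney with the highest Cidea level, against 3.88 to 3.90 in the other solitary kidneys. No group of Cidea, Dgat2 or Plin2 held such a kidney, but Plin2 in HSRA-S fell only just short of the rule. It was at 7.04 in HSRA-S replicate 1 and at 6.70 to 6.76 in the other solitary kidneys. Without that kidney the Plin2 difference was 0.17.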

How the results depend on the processing

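Cidea, Dgat2 and Plin2 were higher in HSRA-S under all 20 alternatives, with Cidea between 0.458 and 0.597 and at an adjusted p of 0.141 to 0.977 in limma. The count of genes called was 0, and 1 (Hoxb5) with the dimmest 50% left out, with an intensity trend and with log2(value + 16). Genes at an unadjusted p under 0.05 numbered 1663, against 1010 without HSRA-C replicate 3, 1017 without HSRA-C replicate 4 and 669 without both. Same-numbered samples did not deviate together (r = -0.068, 0.07, 0.129 and -0.11; 1 of 4 solitary kidneys correlated best with its own number), and with the replicate block Cidea was at 0.558, adjusted p = 0.193 in limma, with 0 genes called. Of 897 values of 47 named genes under alternatives, 876 kept their sign and 21 in 9 genes did not. Leaving out single kidneys gave -0.0139 to 0.0785 for Plin4, -0.0571 to 0.159 for Adipoq, -0.0675 to 0.207 for Fabp4, -0.0393 to 0.0756 for Lep, -0.157 to 0.00517 for Cfd and -0.0367 to 0.15 for Gpr37l1. Without HSRA-C replicates 3 and 4, Plin4 was at -0.00347, Pnpla2 at -0.0399 and Lep at -0.0399. With the tubule covariate Plin4 was at -0.0457, Pnpla2 at -0.00774, Cideb at -0.00901, Lep at -0.0836 and Trarg1 at 0.0104. The cause of these changes was not tested. RMA compresses dim signals, and its effect on genes near the dim limit, such as Plin4, Fabp4 and Lep, was not tested. Neither the size nor the sign of their differences is settled by these values.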

Other observations

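The mean of 10 macrophage markers ran from 5.15 to 5.49 in HSRA-S and from 5.07 to 5.24 in HSRA-C, with 9 of 10 higher in HSRA-S and 0 called, and the complement gene C1qc differed by 0.47 (SE 0.11) without overlap. Macrophages can carry droplets with Plin2, and their part in the Plin2 difference was not tested.

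Among the 45 pairs of the 10 genes, the correlation of deviations from the group means over 8 arrays had a median of 0.08. The pairs farthest from 0, picked after seeing all of them, were Cidec with Plin2 at -0.84 and Plin4 with Dgat1 at 0.84, followed by Plin4 with Dgat2 at 0.77. In HSRA-S replicate 1 Cidec was at its lowest (5.36) and Plin2 at its highest (7.04), and in HSRA-C replicate 1 Cidec was at its highest (6.66) and Plin2 at its lowest (6.47). These are descriptions of 8 arrays with no test.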
